A study of Mus musculus with 22 samples.

Results

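Liver is the organ that sets how much iron enters the plasma, and 10 genes of that task were followed here in livers of newborn mice given adeno-associated virus (AAV) vectors. The 10 genes were taken by name from the 55291 rows of the deposited gene tables: Hamp and Hamp2 (hepcidin and its mouse paralog), Slc40a1 (ferroportin), Tfrc and Tfr2 (transferrin receptors), Fth1 and Ftl1 (ferritin heavy and light chains), Bmp6, Hfe and Slc39a14. All 10 were found in both tables. A further 70 genes of iron and heme handling served for comparison.

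Hepcidin is a small hormone that hepatocytes secrete. It binds ferroportin, the exporter through which iron leaves cells, and causes its degradation, so that a rise in hepcidin lowers the release of iron into plasma. BMP6 from sinusoidal endothelial cells and interleukin-6 during inflammation both raise Hamp transcription, the former through BMP receptors and SMAD proteins and the latter through STAT3. HFE and transferrin receptor 2 report the iron load of transferrin to the same pathway. Iron taken up by the cell is stored in ferritin, and iron-regulatory proteins adjust the translation or the stability of several of these mRNAs through hairpins in their untranslated regions.

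RNA was sequenced from 22 livers of male wild-type C57BL/6 pups that received 1 intravenous injection on postnatal day 1 and were killed 36 hours later. The groups were PBS (n = 4), AAV9.empty, an AAV9 capsid labelled empty (n = 4), AAV9.EGFP, labelled rAAV9.CB.EGFP (n = 4), rAAV9-ST3GAL5.v1, labelled rAAV9.CB.ST3GAL5 (n = 3), the E332K vector, labelled rAAV9.CB.ST3GAL5.E332K (n = 3), and rAAV9-ST3GAL5.v2, labelled rAAV9.Syn1.ST3GAL5.miR122BS (n = 4). ST3GAL5 encodes GM3 synthase, which makes the ganglioside GM3, and the vectors carry the human coding sequence. CB is a promoter active in most cell types, Syn1 is the promoter of a neuronal gene, and miR122BS stands for binding sites of miR-122, a miRNA abundant in hepatocytes. The labels give no litter, calendar date of injection or sequencing batch, and whether livers came from separate litters is unknown. The paper describes its sample sizes as independent biological replicates. Each p-value reflects only how these libraries vary, which may in part be technical or a matter of litter or batch. The comparisons ask which vectors, of those that carry a genome, moved iron genes away from the empty capsid, and whether the capsid itself moved them away from PBS.

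Library totals lay between 17164502 and 24305788 expected counts. No library held fewer than 21 counts of any of the genes except Hamp2, for which none held more than 9. Every hepatocyte marker of the list used here was detected, led by Alb with a mean of 31559 TPM, and erythroid transcripts were as prominent, with a mean of 43051 TPM for the globin gene Hba-a2. Gm47283, a gene annotated on the Y chromosome, had no count in any of the 3 rAAV9-ST3GAL5.v1 libraries, in 1 of 4 AAV9.empty, 3 of 4 AAV9.EGFP and 2 of 4 rAAV9-ST3GAL5.v2 libraries, and was present in all 4 PBS and all 3 E332K libraries. The rAAV9-ST3GAL5.v1 group therefore cannot be told apart from this difference in its comparisons with PBS and with the E332K vector. In bulk liver, fewer cells of a type and less RNA per cell cannot be told apart either.

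In GRCm38 (mm10, GENCODE vM21), Hamp lies at chr7:30942368-30944032 and Hamp2 close by at chr7:30922372-30924681, both on the minus strand, and Ftl1 lies on the same chromosome at chr7:45457944-45459884. Slc40a1 lies at chr1:45908068-45926523, Tfrc at chr16:32608920-32632794, Tfr2 at chr5:137569840-137587481, Fth1 at chr19:9980598-9985098, Hfe at chr13:23702034-23710854, Bmp6 at chr13:38345107-38500302 and Slc39a14 at chr14:70303469-70351425.

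The iron-responsive hairpins are shown because they divide the genes into those regulated at translation and that regulated in mRNA stability, which read counts alone cannot separate. In the GENCODE vM21 transcripts (GRCm38), the loop CAGTGN preceded by a C with 5 bases between, in an untranslated region and with all 5 stem pairs formed, was found in 4 of the 10 genes. Capitals mark the unpaired C and the loop. A 5′ hairpin bound by an iron-regulatory protein is known to block translation. In the 5′ untranslated regions of Fth1 (chr19:9982732-9982761, plus strand), Ftl1 (chr7:45459778-45459807, minus strand) and Slc40a1 (chr1:45925464-45925493, minus strand), the sites read as follows.
Fth1: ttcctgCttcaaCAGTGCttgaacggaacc
Ftl1: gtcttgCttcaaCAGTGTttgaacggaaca
Slc40a1: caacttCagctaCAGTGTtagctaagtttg
The 3′ untranslated region of Tfrc, where iron-regulatory proteins bound to the hairpins are known to protect the mRNA, held 4 sites between chr16:32631219-32631248 and chr16:32631710-32631739 on the plus strand. The first and the last are printed.
Tfrc, first: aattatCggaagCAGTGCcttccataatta
Tfrc, last: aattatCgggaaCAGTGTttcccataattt

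Levels are given per length, as TPM (transcripts scaled by length and by library), where genes are compared with each other. Ftl1 was the most abundant, with a median of 4864 TPM over the 22 livers, followed by Fth1 with 2272 TPM and Hamp with 1600 TPM. Tfr2 (158 TPM), Tfrc (110 TPM), Slc40a1 (95.1 TPM) and Slc39a14 (54.4 TPM) formed a middle range. Hfe had a median of 15.3 TPM and Bmp6, which is made mainly outside hepatocytes, 0.73 TPM. Hamp2 was close to absent, with a median of 0.375 TPM. Comparisons between groups use counts scaled with TMM factors to the usual library size unit, CPM. On that scale Hamp varied most, with a highest library 15.2-fold above the lowest, against 1.41-fold for Ftl1 and 1.47-fold for Fth1.

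**Figure D1:**
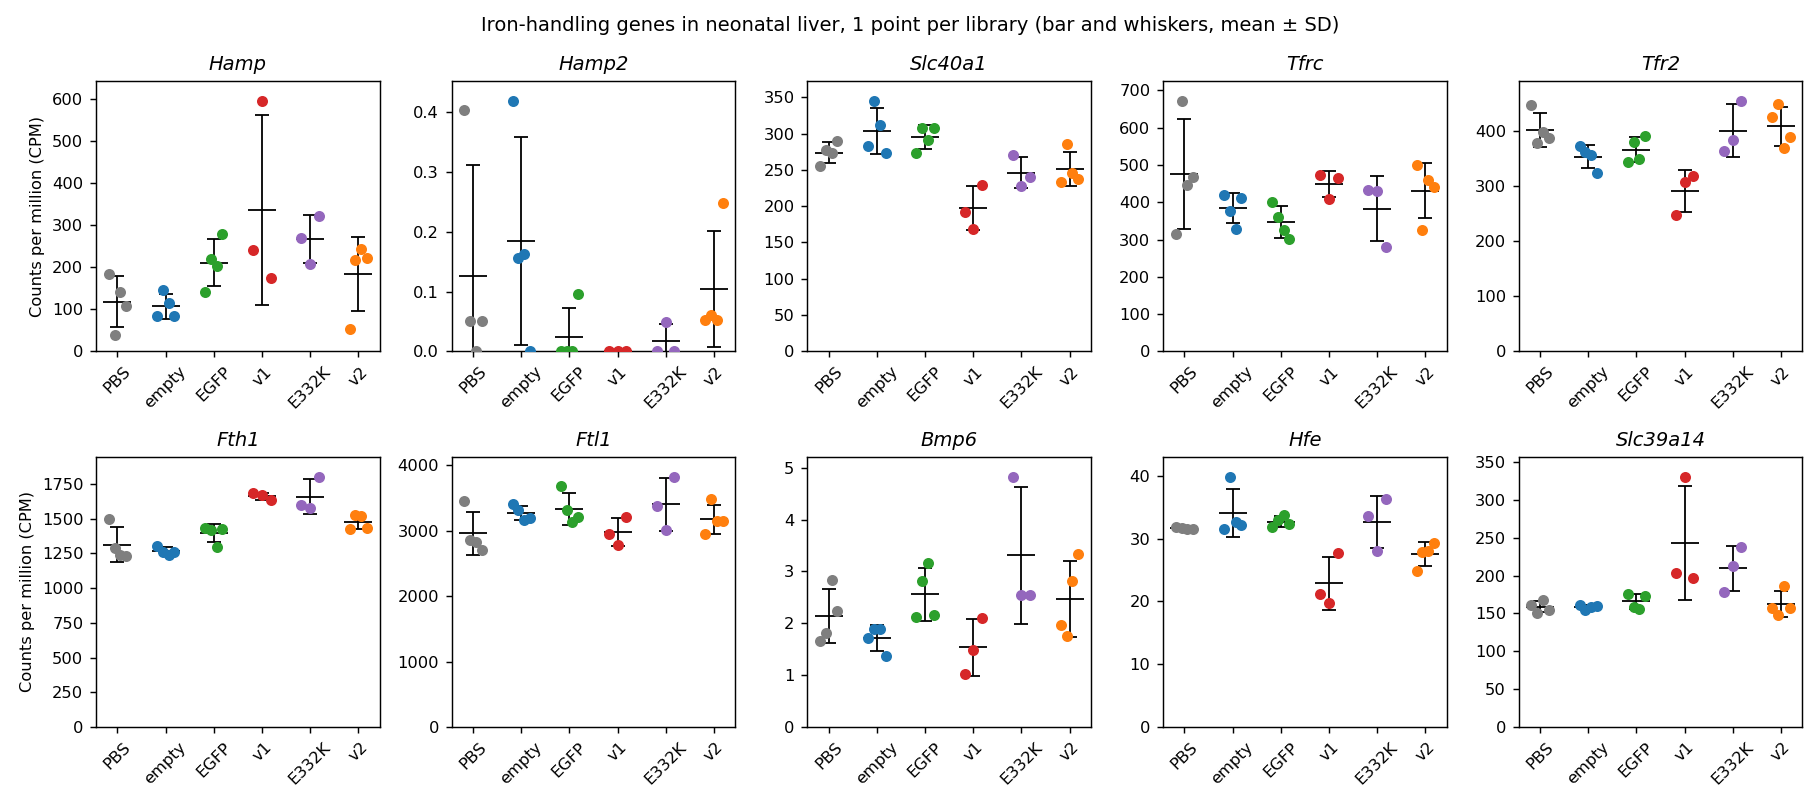
CPM of the 10 genes in each of the 22 libraries, with 1 panel per gene, groups along the x axis, bars for group means and whiskers for the SD, cut at 0. Hamp reached 596 CPM in 1 rAAV9-ST3GAL5.v1 liver and fell to 39.1 CPM in 1 PBS liver, while the lowest Slc40a1 value, 169 CPM, stood in a rAAV9-ST3GAL5.v1 liver.

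Hamp, the hepcidin gene, had its lowest group means in the groups without a vector genome, PBS and AAV9.empty. It measured 185, 39.1, 142 and 109 CPM in the PBS livers. In the AAV9.empty livers it measured 83.1, 145, 116 and 84.4 CPM. These groups overlapped throughout, with a log2 fold change of -0.15 for AAV9.empty against PBS (95% interval -0.81 to 0.52).

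With rAAV9-ST3GAL5.v1, Hamp measured 242, 596 and 175 CPM. All 3 livers lay above all 4 AAV9.empty livers, and 1 of them lay far above the other two. The log2 fold change was 1.66 ± 0.38 (SE), or 3.16-fold (edgeR quasi-likelihood test, adjusted p = 0.011). Without the liver at 596 CPM it was 0.96 (edgeR, adjusted p = 0.0081). Against PBS the log2 fold change was 1.51 (edgeR, adjusted p = 0.046), and the groups overlapped. The highest PBS liver, at 185 CPM, lay above the lowest rAAV9-ST3GAL5.v1 liver, at 175 CPM. The call against PBS was lost in 5 of 10 alternatives, DESeq2 among them, and without the liver at 596 CPM.

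In the E332K livers Hamp measured 271, 207 and 322 CPM, again with no overlap with AAV9.empty. The log2 fold change was 1.31 ± 0.19 (SE), or 2.48-fold (edgeR, adjusted p = 0.00086). In a single fit over all 6 groups, the same difference had an adjusted p of 0.062 (edgeR).

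AAV9.EGFP, whose cargo is a fluorescent protein, gave 142, 220, 203 and 279 CPM of Hamp, and its lowest liver overlapped the highest of AAV9.empty. The log2 fold change was 0.98 ± 0.19 (SE), or 1.98-fold (edgeR, adjusted p = 0.042). This call was lost in the fit over all 6 groups (edgeR, adjusted p = 0.55) and when any 1 of 6 of the 8 livers was left out.

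With rAAV9-ST3GAL5.v2, 3 livers measured 218, 244 and 223 CPM and the fourth 52.5 CPM, below every AAV9.empty liver. The log2 fold change of 0.79 ± 0.35 (SE) did not pass (edgeR, adjusted p = 0.21). Without the liver at 52.5 CPM it was 1.10 (edgeR, adjusted p = 0.011).

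Between vectors, the log2 fold change of Hamp was 0.35 in rAAV9-ST3GAL5.v1 relative to E332K, with a 95% interval from -0.57 to 1.27 (edgeR, adjusted p = 0.56). Against AAV9.EGFP it was 0.66 (interval -0.19 to 1.52), and against rAAV9-ST3GAL5.v2 it was 0.90 (interval -0.28 to 2.07). Neither passed. With the erythroid score as a covariate the difference from AAV9.EGFP was 1.23 (edgeR, adjusted p = 0.015). Without the liver at 596 CPM the log2 fold change was -0.33 relative to E332K, -0.02 relative to AAV9.EGFP and 0.20 relative to rAAV9-ST3GAL5.v2. In order of group means, Hamp stood at 338 ± 226 CPM with rAAV9-ST3GAL5.v1, 267 ± 57.4 with E332K, 211 ± 56.0 with AAV9.EGFP, 184 ± 88.7 with rAAV9-ST3GAL5.v2, 119 ± 61.4 with PBS and 107 ± 29.6 with AAV9.empty (SD). Every pair of neighbours in this order overlapped, and the place of rAAV9-ST3GAL5.v1 at its head rests on the liver at 596 CPM.

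Hamp2 was too low to be tested in any comparison. It had no count in the rAAV9-ST3GAL5.v1 livers, and at most 0.419 CPM elsewhere, in 1 AAV9.empty liver. Hamp and Hamp2 transcripts share 128 of the 380 stretches of 31 bases that Hamp holds, so reads can be split between them, but with at most 9 counts for Hamp2 the sum of both genes gave the same calls as Hamp alone.

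Slc40a1, the gene of ferroportin, went the other way. It measured 283, 345, 312 and 273 CPM with AAV9.empty and 192, 169 and 230 CPM with rAAV9-ST3GAL5.v1. The groups did not overlap. The log2 fold change was -0.62 ± 0.12 (SE), or 1.53-fold lower (edgeR, adjusted p = 0.0057). Slc40a1 was also lower with rAAV9-ST3GAL5.v1 than with AAV9.EGFP (log2 fold change -0.59) and PBS (-0.47). The E332K livers, at 270, 228 and 240 CPM, all lay below the AAV9.empty livers, with a log2 fold change of -0.30 that did not pass (edgeR, adjusted p = 0.075). That difference passed by DESeq2 (-0.30; adjusted p = 0.030) and on the TPM scale (-0.44; limma, adjusted p = 0.022). The rAAV9-ST3GAL5.v2 livers spanned 234 to 285 CPM and overlapped AAV9.empty (log2 fold change -0.27, edgeR, adjusted p = 0.13). The v2 difference passed on the TPM scale (limma, adjusted p down to 0.024) and without rAAV9-ST3GAL5.v2 replicate 2 (edgeR, adjusted p = 0.038). The AAV9.EGFP livers, at 273 to 308 CPM, had a log2 fold change of -0.04 (interval -0.20 to 0.13).

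The ferritin subunits behaved differently from each other. Fth1, the heavy chain with ferroxidase activity, measured 1303, 1261, 1240 and 1262 CPM with AAV9.empty. With rAAV9-ST3GAL5.v1 it measured 1681, 1666 and 1633 CPM. With E332K it measured 1600, 1574 and 1800 CPM. Both vector groups lay wholly above AAV9.empty, by log2 fold changes of 0.39 ± 0.07 (SE; edgeR, adjusted p = 0.0027) and 0.39 ± 0.09 (SE; edgeR, adjusted p = 0.014). The 4 rAAV9-ST3GAL5.v2 livers, from 1428 to 1526 CPM, also lay above AAV9.empty, with a log2 fold change of 0.23 that did not pass (edgeR, adjusted p = 0.087). The v2 difference passed by DESeq2, and by edgeR with the erythroid score as a covariate. The E332K call was lost without AAV9.empty replicate 3.

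Ftl1, the light chain, spanned 3160 to 3405 CPM with AAV9.empty, 2774 to 3200 CPM with rAAV9-ST3GAL5.v1 and 3012 to 3821 CPM with E332K. Its log2 fold changes were -0.13 (interval -0.31 to 0.05) and 0.06 (interval -0.17 to 0.28), and it passed in no comparison. Of the 31-base stretches of Ftl1, 64.1% occur in other genes, most in the pseudogene Ftl1-ps1. That row held at most 618 counts against 53168 or more for Ftl1, so its level is uncertain only to the extent of the authors' read assignment.

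Of the receptors, Tfrc, which takes up transferrin-bound iron and is abundant in red cell precursors, did not pass against AAV9.empty with any vector by edgeR. It ranged from 329 to 419 CPM with AAV9.empty and from 408 to 472 CPM with rAAV9-ST3GAL5.v1 (log2 fold change 0.23; edgeR, adjusted p = 0.12). On the TPM scale this difference passed (0.35; limma, adjusted p = 0.045). The widest group was PBS, with 316, 672, 446 and 468 CPM. Tfr2, which senses transferrin saturation in hepatocytes, measured 248, 308 and 318 CPM with rAAV9-ST3GAL5.v1, below all AAV9.empty livers at 322 to 371 CPM. That difference missed the threshold (log2 fold change -0.27, edgeR, adjusted p = 0.074). It passed at a similar size by DESeq2 (-0.28, adjusted p = 0.041) and in the edgeR fit over all 6 groups (-0.28, adjusted p = 0.041). It also passed without rAAV9-ST3GAL5.v1 replicate 3 (-0.34, edgeR, adjusted p = 0.047). On the TPM scale the groups overlapped, at 120 to 154 TPM against 146 to 153 TPM, and the difference did not pass (limma). Over 11 alternatives the log2 fold change ran from -0.32 to -0.14. With rAAV9-ST3GAL5.v1, Tfr2 was also lower by edgeR than with PBS (-0.46, adjusted p = 0.013), rAAV9-ST3GAL5.v2 (-0.47, adjusted p = 0.024) and AAV9.EGFP (-0.34, adjusted p = 0.035). None of these calls held on the TPM scale (limma), and that against AAV9.EGFP was lost in 7 of 11 alternatives.

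Hfe, mutated in hereditary hemochromatosis, measured 21.1, 19.8 and 27.7 CPM with rAAV9-ST3GAL5.v1, below all AAV9.empty livers at 31.5 to 39.8 CPM. The log2 fold change was -0.57 ± 0.14 (SE; edgeR, adjusted p = 0.014). On the TPM scale, which corrects for the length of the transcripts assigned, it was -0.27 (limma, adjusted p = 0.35). Without the first rAAV9-ST3GAL5.v1 liver the edgeR adjusted p was 0.062. In the E332K livers, at 28.1 to 36.2 CPM, the log2 fold change of Hfe was -0.06 (interval -0.31 to 0.19). The rAAV9-ST3GAL5.v2 livers, at 24.8, 27.9, 28.0 and 29.3 CPM, all lay below AAV9.empty, with a log2 fold change of -0.30 (interval -0.51 to -0.10) that did not pass (edgeR, adjusted p = 0.081).

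Slc39a14, a transporter that takes up iron not bound to transferrin, held a narrow range with AAV9.empty, from 154 to 161 CPM. It measured 203, 330 and 197 CPM with rAAV9-ST3GAL5.v1 and 178, 213 and 238 CPM with E332K. Neither group overlapped AAV9.empty. The log2 fold changes were 0.62 ± 0.16 (SE; edgeR, adjusted p = 0.020) and 0.40 ± 0.10 (SE; edgeR, adjusted p = 0.020). The rAAV9-ST3GAL5.v1 liver highest in Slc39a14 was also the highest in Hamp, and without it the log2 fold change was 0.34 (edgeR, adjusted p = 0.0093). The rAAV9-ST3GAL5.v1 call was lost without AAV9.empty replicate 1, 2 or 3, with edgeR adjusted p-values up to 0.057, and the E332K call without AAV9.empty replicate 2 or 3 and on the TPM scale. AAV9.EGFP gave 0.07 (interval -0.05 to 0.20) and rAAV9-ST3GAL5.v2 0.04 (interval -0.14 to 0.22).

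Bmp6, the ligand that raises hepcidin, was measured with few counts, 21 to 97 per library. It stood at 1.72, 1.88, 1.90 and 1.37 CPM with AAV9.empty and at 4.82, 2.54 and 2.55 CPM with E332K, where the log2 fold change was 0.95 ± 0.29 (SE; edgeR, adjusted p = 0.044). The call was lost when any 1 of 5 of the 7 livers was left out, among them the E332K liver at 4.82 CPM (log2 fold change 0.58). With rAAV9-ST3GAL5.v1 Bmp6 measured 1.02, 1.49 and 2.10 CPM, with a log2 fold change of -0.15 (interval -0.83 to 0.54). The AAV9.EGFP livers, at 2.12 to 3.16 CPM, all lay above AAV9.empty, with a log2 fold change of 0.58 (interval 0.06 to 1.11) that did not pass (edgeR, adjusted p = 0.33). With rAAV9-ST3GAL5.v2 Bmp6 spanned 1.76 to 3.34 CPM and overlapped AAV9.empty, with a log2 fold change of 0.54 (interval -0.05 to 1.12). Transcripts of Bmp6 share 194 stretches of 31 bases with its neighbour Txndc5.

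**Figure D2:**
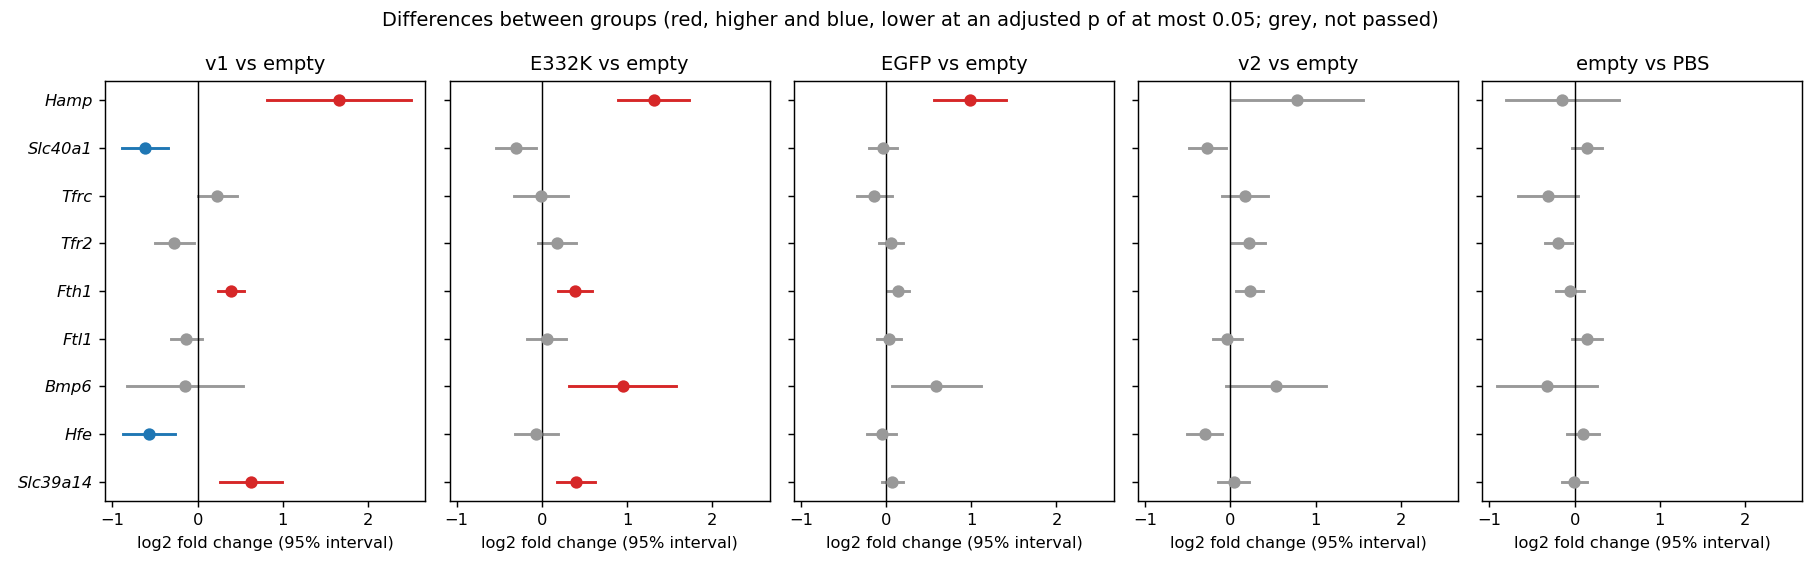
Log2 fold changes (x axis) with 95% intervals for the 9 genes tested in 5 comparisons, coloured where the adjusted p was at most 0.05. By edgeR, Hamp was the only gene called with AAV9.EGFP, none was called with rAAV9-ST3GAL5.v2 or AAV9.empty, and blue points, for Slc40a1 and Hfe, stand only under rAAV9-ST3GAL5.v1.

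Counted together, 9 of the 10 genes passed the filter on low counts in every comparison, and the counts below are read against the share of all tested genes called at an adjusted p of at most 0.05 (edgeR). With rAAV9-ST3GAL5.v1 against AAV9.empty, 3 genes were higher (Hamp, Fth1, Slc39a14) and 2 lower (Slc40a1, Hfe), where 13.8% of all genes were higher and 14.3% lower. With E332K, 4 were higher (Hamp, Bmp6, Fth1, Slc39a14) and 0 lower, against 7.93% and 7.09% of all genes. With AAV9.EGFP, 1 was higher against 0.387% of all genes, and 0 were lower against 0.0553%. The median log2 fold change of the 9 genes was -0.13 with rAAV9-ST3GAL5.v1 (all genes, 0.025), 0.18 with E332K (all genes, -0.0023) and 0.056 with AAV9.EGFP (all genes, 0.0062).

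With rAAV9-ST3GAL5.v2, edgeR called 0 genes, against 2.88% of all genes higher and 2.50% lower. At an unadjusted p under 0.05 there were 5, and DESeq2 (Fth1) and limma on log2(TPM + 1) (Slc40a1) each called 1. For AAV9.empty against PBS edgeR called 0, against 0.104% higher and 0.207% lower. At an unadjusted p under 0.05 there was 1, and DESeq2 and limma each called 0.

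Among the comparisons of rAAV9-ST3GAL5.v1 with other groups, 3 genes were higher (Fth1, Slc39a14, Tfrc) and 3 lower (Slc40a1, Hfe, Tfr2) than with AAV9.EGFP, where 12.7% and 15.1% of all genes were called. Against PBS, 3 were higher (Hamp, Fth1, Slc39a14) and 3 lower (Slc40a1, Hfe, Tfr2), where 12.4% and 12.7% of all genes were called. Against rAAV9-ST3GAL5.v2, 1 was higher (Slc39a14) and 1 lower (Tfr2), where 12.1% and 11.3% were called. Against the E332K vector edgeR called 0, where 9.55% of all genes were higher and 10% lower. At an unadjusted p under 0.05 there were 3 (Tfr2, Bmp6 and Hfe, all lower with rAAV9-ST3GAL5.v1), DESeq2 called 3 and limma 0. Of the 14 calls against AAV9.EGFP, PBS and rAAV9-ST3GAL5.v2, that of Slc40a1 against AAV9.EGFP was the only one that held whichever library was left out. The 9 comparisons share groups and are not independent of one another.

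On the TPM scale the median gene shifted by 0.08 (log2) in rAAV9-ST3GAL5.v1 against AAV9.empty, and limma called 1940 genes higher and 1138 lower there, against 2049 and 2134 by edgeR. Of E332K against AAV9.empty limma called 407 and 1074 (edgeR, 1170 and 1046; shift -0.10), and of rAAV9-ST3GAL5.v2 207 and 775 (edgeR, 419 and 364; shift -0.11). The comparisons of rAAV9-ST3GAL5.v1 with the E332K vector, AAV9.EGFP, rAAV9-ST3GAL5.v2 and PBS shifted by 0.17, 0.12, 0.17 and 0.12, with 2010 and 521, 2343 and 1052, 2738 and 700, and 2131 and 981 genes called higher and lower. For AAV9.empty against PBS the shift was 0.04, with 3 and 0 called (edgeR, 15 and 30). On this scale Hamp, Fth1, Slc40a1 and Slc39a14 kept their calls in rAAV9-ST3GAL5.v1 against AAV9.empty, with log2 fold changes of 1.54, 0.48, -0.53 and 0.63.

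The presence of Gm47283, entered as a covariate, left the log2 fold change of Hamp in rAAV9-ST3GAL5.v1 against AAV9.empty at 2.01, of Fth1 at 0.40, of Slc39a14 at 0.61, of Slc40a1 at -0.46 and of Hfe at -0.48, but 0 of the 5 passed, with edgeR adjusted p-values from 0.080 to 0.24. In that fit the difference rests on the 1 AAV9.empty liver without the gene. For E332K against AAV9.empty, Hamp kept a log2 fold change of 1.21 (edgeR, adjusted p = 0.0029), and 3 of the 4 calls remained.

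Markers of several cell types differed between the same groups. Their counts are to be read against the shares of all genes called against AAV9.empty (edgeR). These were 13.8% higher and 14.3% lower with rAAV9-ST3GAL5.v1, 7.93% and 7.09% with E332K, and 2.88% and 2.50% with rAAV9-ST3GAL5.v2. The stellate counts with rAAV9-ST3GAL5.v1, 12.5% each way, were close to that share. With E332K the erythroid (11.1%), endothelial (10%) and hepatocyte (9.09%) markers called higher were close to the share of all genes. So were the neutrophil markers called lower (9.09%). Of 11 hepatocyte markers 9 were lower with rAAV9-ST3GAL5.v1 than with AAV9.empty and 1 was higher, with Apoa1 (log2 fold change -0.65), Alb (-0.64) and Ahsg (-0.55) the most abundant, and their summed level was 72556 to 84193 TPM against 103110 to 117920 TPM. Of 11 neutrophil markers 10 were higher, among them S100a9 and S100a8 (0.80 each), with sums of 7077 to 8232 TPM against 4279 to 4544 TPM. Of 12 Kupffer cell markers 6 were lower and 1, Lyz2, higher, of 10 sinusoidal endothelial markers 5 were lower and 2 higher, and of 8 stellate cell markers 1 was lower and 1 higher. Of 18 erythroid markers 6 were higher, with sums of 118070 to 142340 TPM against 111380 to 140820 TPM. With E332K against AAV9.empty, 5 neutrophil markers were higher and 1 lower (sums of 5223 to 6523 TPM), 2 hepatocyte markers lower and 1 higher (89653 to 99005 TPM), and 2 erythroid markers higher (74334 to 163700 TPM). In the same comparison 4 of 8 stellate cell markers were lower (159 to 226 TPM against 227 to 301 TPM), 3 Kupffer cell markers lower (1072 to 1189 TPM against 1294 to 1600 TPM) and 1 endothelial marker higher. With rAAV9-ST3GAL5.v2, 4 Kupffer cell markers (940 to 1164 TPM) and 2 endothelial markers were lower and 3 erythroid markers higher. None of these markers was at 0 in all libraries, and their part in the differences of the iron genes was not tested, except that with the erythroid score as a covariate Hamp, Fth1 and Slc39a14 kept their calls against AAV9.empty in the rAAV9-ST3GAL5.v1 livers, while Slc40a1 (log2 fold change -0.59, against -0.62 without the score; edgeR, adjusted p = 0.051) and Hfe (-0.59, against -0.57; edgeR, adjusted p = 0.073) did not, at nearly the same size.

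Of the 70 other iron genes, 69 were tested. With rAAV9-ST3GAL5.v1 against AAV9.empty, 13 rose and 13 fell, and the median log2 fold change was 0.016 against 0.025 over all genes. These are 18.8% of the 69 each way, against 13.8% of all genes higher and 14.3% lower. With E332K, 9 rose and 9 fell, or 13.0% each way against 7.93% and 7.09% of all genes. With rAAV9-ST3GAL5.v2, 3 rose and 3 fell, or 4.35% each way, close to the 2.88% and 2.50% of all genes. These v2 calls (Blvrb, Uros, Glrx5, Smad4, Slc11a1 and Bmpr1a) went from 6 to 0 without AAV9.empty replicate 2, to 1 without AAV9.empty replicate 1 or 3 or the first v2 liver, and to 2 without the fourth. With AAV9.EGFP 1 rose, against 0.387% of all genes. In the 4 lists that follow, counts of rAAV9-ST3GAL5.v1 are to be read against the same 13.8% and 14.3%. Those of E332K are to be read against 7.93% and 7.09%. For AAV9.empty against PBS edgeR called 0, with 11 at an unadjusted p under 0.05 and 2 called by DESeq2.

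Among 20 regulators of hepcidin, 3 rose and 4 fell with rAAV9-ST3GAL5.v1. Tmprss6, a protease that cleaves hemojuvelin, fell by 0.75 on the log2 scale (edgeR, adjusted p = 0.0015). It went from 309 to 391 CPM with AAV9.empty to 193 to 241 CPM. The remaining 3 that fell were Hjv (hemojuvelin, a BMP coreceptor), Neo1 and Furin, and those that rose were Id3, Erfe and Fgl1. Erfe lay at 7.37 to 19.6 CPM against 4.01 to 7.26 CPM with AAV9.empty, and Fgl1 at 579 to 632 CPM against 375 to 519 CPM. Id3, a transcriptional target of BMP signalling, rose with rAAV9-ST3GAL5.v1 (log2 fold change 0.57) and with E332K (0.48). The BMP targets Id1, Smad6, Smad7 and Atoh8 were called with neither vector. Id1 lay at 31.3 to 37.0 CPM with rAAV9-ST3GAL5.v1 and at 30.2 to 37.4 CPM with AAV9.empty. Smad7 with E332K, at 14.3 to 18.9 CPM, lay above AAV9.empty (11.3 to 13.9 CPM). With E332K the 5 regulators that fell (25%, against 7.09% of all genes) were Neo1 (-0.61), Smad4 (-0.45), Bmpr2, Smad5 and Bmpr1a. Smad4, the shared partner of the SMAD proteins, fell with rAAV9-ST3GAL5.v2 too (-0.42), as did Bmpr1a (-0.36). Id1 was the 1 gene that rose with AAV9.EGFP (log2 fold change 0.47 ± 0.09, SE; edgeR, adjusted p = 0.024), and this call was lost when any 1 of 5 of the 8 livers was left out. Id3 was not called with AAV9.EGFP (45.6 to 58.6 CPM, against 42.5 to 53.8 CPM with AAV9.empty).

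Of 16 transport genes, 6 rose and 4 fell with rAAV9-ST3GAL5.v1. Lcn2, a siderophore-binding protein released in inflammation, rose from 147 to 169 CPM to 424 to 1565 CPM (log2 fold change 2.45). Steap4, a ferrireductase, rose from 61.8 to 81.8 CPM to 152 to 628 CPM (2.18). Cd163, the macrophage receptor for hemoglobin bound to haptoglobin, fell from 5.66 to 8.62 CPM to 1.89 to 3.27 CPM (-1.57). Hpx, the plasma carrier of heme, rose with rAAV9-ST3GAL5.v1 and with E332K (log2 fold change 0.78 ± 0.10, SE; edgeR, adjusted p = 0.00039), whereas Lcn2 and Steap4 with E332K lay at 152 to 176 CPM and 61.3 to 80.7 CPM. Lrp1, which takes up the complex of heme and hemopexin, and Steap2 fell with E332K (-0.39 and -0.53). Slc11a1, an iron transporter of phagosomes, fell with rAAV9-ST3GAL5.v2 (-0.39).

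Of 17 heme genes, 1 rose and 2 fell with rAAV9-ST3GAL5.v1, no larger a share than of all genes. Hmox1, which breaks heme down and releases its iron, rose from 130 to 177 CPM to 263 to 336 CPM (log2 fold change 0.99; edgeR, adjusted p = 0.00080). With E332K, Blvrb (0.68), Uros (0.52) and Ppox were among the heme genes that rose. Blvrb and Uros rose with rAAV9-ST3GAL5.v2 as well (0.36 and 0.47).

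Of the 17 genes of iron sensing, storage and mitochondria, 16 were tested, and 3 rose and 3 fell with rAAV9-ST3GAL5.v1. Aco1, which encodes iron-regulatory protein 1, one of the proteins that bind the hairpins printed above, fell from 108 to 130 CPM to 53.9 to 80.4 CPM (log2 fold change -0.86; edgeR, adjusted p = 0.0018). Nfe2l2 and Bach1, an activator and a repressor that share sites in ferritin and Hmox1 genes, rose together (0.78 and 1.17). With E332K 3 rose, among them Nfe2l2 (0.41), and 2 fell. These are 18.8% and 12.5%, against 7.93% and 7.09% of all genes. Glrx5, of iron-sulfur cluster assembly, rose with rAAV9-ST3GAL5.v2 (0.36).

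**Figure D3:**
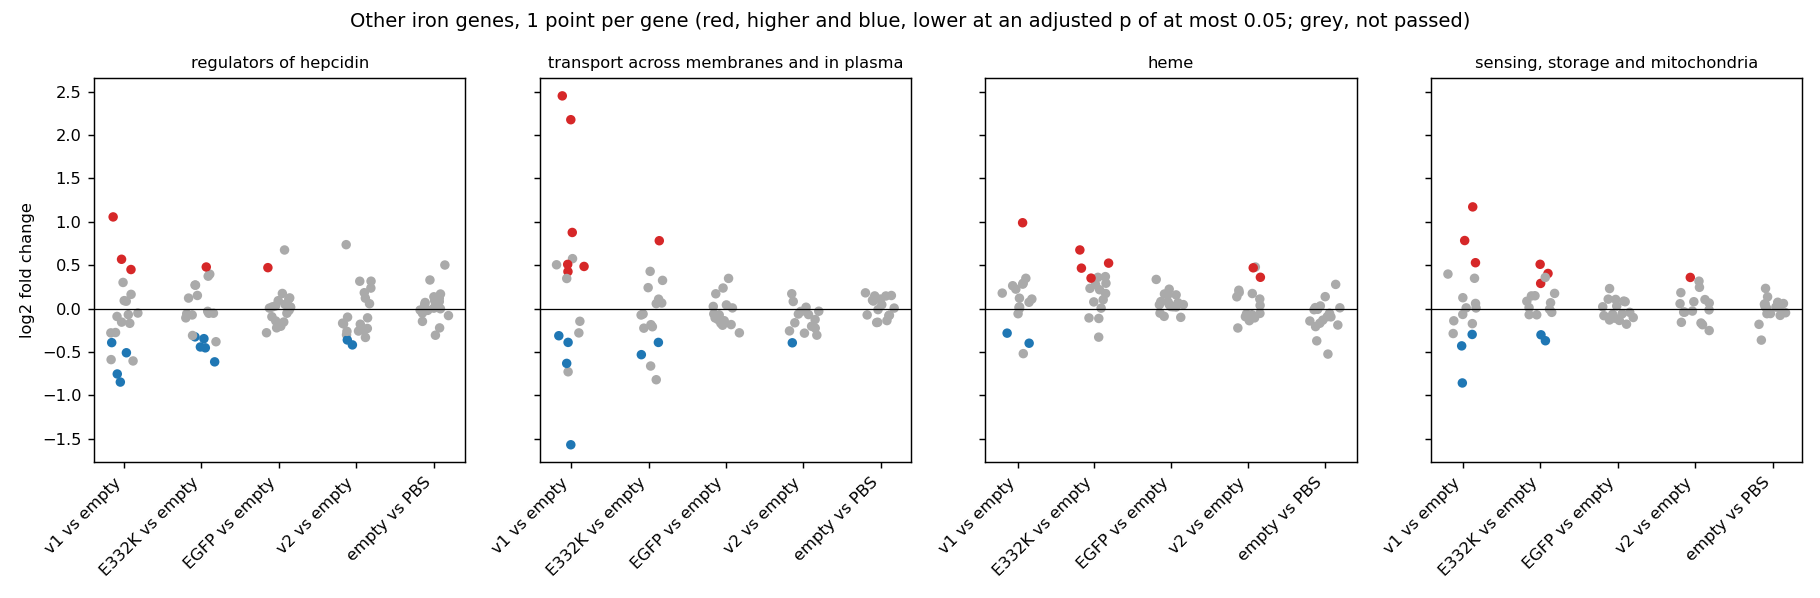
Log2 fold change (y axis) of each other iron gene tested, in 4 lists and 5 comparisons, coloured where the adjusted p was at most 0.05. The widest spread stands in the transport list with rAAV9-ST3GAL5.v1, from Lcn2 at 2.45 to Cd163 at -1.57, and AAV9.empty against PBS has no coloured point.

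Within groups, livers high in Hamp were low in Tfrc. After the group means were removed from log2(CPM + 1), Pearson's r over the 22 livers was -0.70 (permutation within groups, p = 0.0026, adjusted p = 0.013 over 10 relations) and Spearman's rho was -0.70 (permutation p = 0.00032, adjusted p = 0.0016). Without the pair of livers farthest in Tfrc, both PBS, r was -0.56 (permutation p = 0.029). The PBS liver at 39.1 CPM of Hamp was the one at 672 CPM of Tfrc. The rAAV9-ST3GAL5.v2 liver at 52.5 CPM of Hamp had 500 CPM of Tfrc, the highest of its group. Tfrc followed the erythroid score, the mean log2 level of the erythroid markers, with r = 0.86 (permutation p = 5e-05, adjusted p = 0.0005) and rho = 0.88 (permutation p = 0.00015, adjusted p = 0.0015), and r was 0.81 without the pair of livers farthest in the score (permutation p = 0.00078). For Hamp and the score, r was -0.46 (permutation p = 0.067, adjusted p = 0.22) and rho -0.50 (permutation p = 0.029, adjusted p = 0.098), which did not pass. For Slc40a1, r with Hamp was 0.0025 (permutation p = 0.99). Of the other members, r with Hamp lay between 0.13 for Hfe and 0.46 for Slc39a14, with no adjusted p under 0.05 (permutation within groups).

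**Figure D4:**
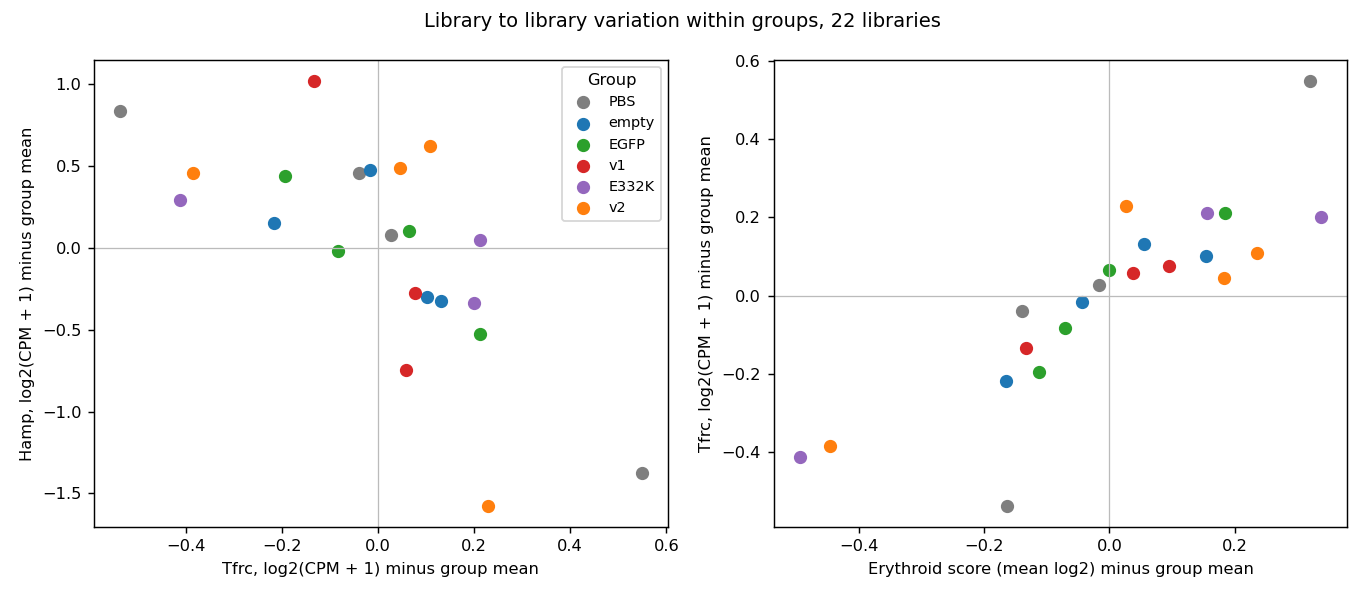
Deviation from the group mean, in log2 units, of Hamp against Tfrc (left) and of Tfrc against the erythroid score (right), with 1 point per library and colours for the 6 groups. The points fall from left to right in the first panel (r = -0.70) and rise in the second (r = 0.86), and the lowest Hamp points are 1 PBS and 1 rAAV9-ST3GAL5.v2 liver.

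Of 10791 genes with a mean of at least 5 CPM, those whose level followed Hamp most closely over the 22 livers, group differences included, were Id3 (Pearson's r = 0.85), Prkd2, a protein kinase (0.84), and Ngp, a neutrophil granule gene (0.83). Slc40a1 was followed most closely by Fads1, a fatty acid desaturase (0.91), Cldn1, a tight junction gene (0.90), and Pygl, liver glycogen phosphorylase (0.90). Tfrc was followed by Yod1 (0.94), a deubiquitinase gene, by Cd24a (0.92) and by Rhag (0.92), an erythroid membrane protein gene that is itself in the erythroid score. These are descriptions of likeness in libraries that share groups and cell makeup.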

How the data were processed

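Per the labels and the study's methods, the authors enriched liver mRNA with oligo(dT) beads and rRNA removal, prepared libraries with a kit that does not mark strand, sequenced them in paired ends, trimmed reads with Trimmomatic, mapped them with STAR to mm10 and estimated expected counts and TPM per gene with RSEM on GENCODE transcripts. The tool versions and the GENCODE release are not given in the sources used here. The deposited expected counts (5.69% of all values were not whole) were rounded.

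Genes were filtered with filterByExpr, scaled with TMM and tested for each pair of groups with the quasi-likelihood test of edgeR 4.0.16 in R 4.3.3, two-sided, with Benjamini-Hochberg adjustment over all genes tested and a threshold of 0.05. Intervals (95%) come from the same fit. The deposited TPM values were tested with limma 3.58.1 on log2(TPM + 1), where fold changes of low genes are understated, leaving out genes whose mean TPM was below 1. DESeq2 1.42.0 and the other alternatives are given under the dependence on processing. The code was tested on simulated data.

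The 10 genes and all lists were chosen with earlier results of these data known. Named genes were the 10 in every comparison, up to 8 called other iron genes with the smallest adjusted p per comparison with AAV9.empty or PBS (for regulators and heme genes, the remaining called ones named beside their count were added after the values were seen), up to 3 leading markers, and the 3 genes most like Hamp, Slc40a1 and Tfrc. Lyz2 was named as the single higher Kupffer marker. Smad6, Smad7 and Atoh8 were named, after the values were seen, as BMP targets that were not called. Correlations within groups used 100000 permutations. Hairpin sequences were read from GENCODE vM21 transcripts (GRCm38), between which stretches of 31 bases were also compared. Promoter sequences and 1 of the heme genes are not reported here. Protein sequences were not used here. Same-numbered libraries did not deviate together in every pair of any comparison.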

Additional observations from a re-analysis of the deposited data

Results flagged for a closer look

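In groups of 4 libraries, a library was looked at again where its gap to the nearest other one exceeded 0.829 of the range of its group. Of 40 groups 6 met this, where chance gives about 1 in 20. Hamp was at 52.5 CPM in 1 rAAV9-ST3GAL5.v2 liver, far below the others. Fth1 was at 1297 CPM in 1 AAV9.EGFP liver, far below the others. Hfe was at 39.8 CPM in 1 AAV9.empty liver, far above the others. Hamp2 stood apart in 1 PBS liver (0.403 CPM), 1 AAV9.EGFP liver (0.0958 CPM) and 1 rAAV9-ST3GAL5.v2 liver (0.249 CPM), each a matter of a few counts.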

How the results depend on the processing

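In the 9 comparisons, 24 log2 fold changes of the 10 genes were called. None of them changed sign under any alternative, and 173 of 256 results of the alternatives and 106 of 169 with a library left out kept the call. The causes of lost or gained calls were not tested. The presence of Gm47283 as a covariate was chosen after the data had been seen, and could not be fitted for rAAV9-ST3GAL5.v1 against PBS or the E332K vector. Depth limits Hamp2 and Bmp6 most.

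Members called in rAAV9-ST3GAL5.v1 against AAV9.empty went from 5 to 1 by limma on log2(TPM + 1) without a filter, 3 with the erythroid score and 0 with Gm47283 as covariates. For E332K against AAV9.empty 4 became 1 with the replicate block and 2 by limma without a filter. For AAV9.EGFP 1 became 0 in the fit over all 6 groups, by limma in its 3 forms and with Gm47283. For rAAV9-ST3GAL5.v2 0 became 1 by DESeq2, by limma in its 3 forms and with Gm47283, and 2 with the erythroid score. For rAAV9-ST3GAL5.v1 against E332K 0 became 3 by DESeq2, 2 without a filter on low counts, 4 in the fit over all 6 groups, 2 with the replicate block and 1 with the erythroid score. Against AAV9.EGFP 6 became 2 with the replicate block, by limma without a filter and with Gm47283. Against rAAV9-ST3GAL5.v2 2 became 0 with the replicate block, with Gm47283 and by limma without a filter, and 1 by limma with a filter, at both pseudocounts, and with the erythroid score. Against PBS 6 became 0 with the replicate block, 2 by limma with a filter, at both pseudocounts, and 1 without it.

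Other iron genes called in rAAV9-ST3GAL5.v1 against AAV9.empty went from 26 to 15 by limma without a filter, 17 with the erythroid score and 2 with Gm47283. For E332K 18 became 6 with the replicate block, 9 by limma with a filter, at both pseudocounts, and 5 without it. For AAV9.EGFP 1 became 2 by DESeq2 and 0 in the fit over all 6 groups, with the replicate block, by limma in its 3 forms and with Gm47283. For rAAV9-ST3GAL5.v2 6 became 10 by DESeq2 and 11 with the erythroid score. For AAV9.empty against PBS 0 became 2 by DESeq2 and without a filter on low counts. The replicate numbers mark no shared litter in the labels, and the correlation of the deviations of same-numbered libraries ran from -0.23 to 0.29, so the block pairs libraries that share only a number.

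With 1 library left out, members called ranged from 4 to 6 in rAAV9-ST3GAL5.v1 against AAV9.empty, 1 to 4 for E332K (1 without AAV9.empty replicate 3, 2 without replicate 2), 0 to 1 for AAV9.EGFP, 0 to 1 for rAAV9-ST3GAL5.v2 (1 without its replicate 1 or 2) and 0 to 0 for AAV9.empty against PBS. For rAAV9-ST3GAL5.v1 they ranged from 0 to 2 against E332K (2 without its replicate 3), 2 to 6 against AAV9.EGFP (2 without AAV9.EGFP replicate 2, 3 or 4 or its own replicate 1), 0 to 4 against rAAV9-ST3GAL5.v2 (0 without replicate 1 of either group, 1 without replicate 2 of either or replicate 4 of the latter, 4 without its own replicate 3) and 1 to 6 against PBS (1 without its own replicate 1, 3 without PBS replicate 2, 3 or 4). Other iron genes ranged from 16 to 31 (16 without rAAV9-ST3GAL5.v1 replicate 1), 8 to 19 for E332K (8 without AAV9.empty replicate 1 or 3, 9 without E332K replicate 1), 0 to 1 for AAV9.EGFP (0 without AAV9.empty replicate 1 or 2 or AAV9.EGFP replicate 2, 3 or 4), 0 to 7 for rAAV9-ST3GAL5.v2 (0 without AAV9.empty replicate 2, 1 without AAV9.empty replicate 1 or 3 or its own replicate 1, 2 without its replicate 4) and 0 to 2 for AAV9.empty against PBS (2 without PBS replicate 1).

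The following values changed sign and were not called. By limma on log2(TPM + 1) with a filter, the log2 fold changes were for Ftl1 -0.064 (E332K against AAV9.empty), -0.015 (AAV9.EGFP), 0.019 (rAAV9-ST3GAL5.v1 against E332K) and 0.094 (against rAAV9-ST3GAL5.v2), for Hfe 0.037 (AAV9.EGFP) and 0.054 (vectors v1 against v2), for Slc39a14 -0.098 (rAAV9-ST3GAL5.v2 against AAV9.empty) and 0.017 (AAV9.empty against PBS), and for Tfrc 0.12 (rAAV9-ST3GAL5.v1 against PBS). With a pseudocount of 0.1 they were the same to 2 digits except 0.039 and 0.055 for Hfe and -0.10 for Slc39a14, and without a filter the same, with 0.023 for Bmp6 (rAAV9-ST3GAL5.v1 against AAV9.empty). With the erythroid score they were 0.094 for Bmp6 (rAAV9-ST3GAL5.v1 against AAV9.empty), 0.028 for Hfe (E332K), -0.0065 for Slc39a14 (rAAV9-ST3GAL5.v2) and 0.14 and 0.062 for Tfrc (AAV9.empty and rAAV9-ST3GAL5.v1 against PBS). With Gm47283 they were 0.19 for Bmp6, 0.022 for Tfrc (E332K) and 0.012 for Slc40a1 (AAV9.EGFP). Tfrc for E332K was 0.00054 without a filter on low counts and 0.0019 with the replicate block, which gave -0.024 for Ftl1 (rAAV9-ST3GAL5.v1 against PBS).

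With 1 library left out, those that changed sign ranged as follows. Against AAV9.empty they were -0.45 to 0.075 for Bmp6 (rAAV9-ST3GAL5.v1), -0.10 to 0.18 for Tfrc, -0.027 to 0.14 for Ftl1 and -0.14 to 0.036 for Hfe (E332K), -0.088 to 0.032 for Slc40a1, -0.019 to 0.058 for Ftl1 and -0.087 to 0.032 for Hfe (AAV9.EGFP), and -0.043 to 0.079 for Slc39a14 (rAAV9-ST3GAL5.v2). For AAV9.empty against PBS they were -0.44 to 0.14 for Hamp, -0.080 to 0.011 for Fth1 and -0.027 to 0.025 for Slc39a14. For rAAV9-ST3GAL5.v1 they were -0.33 to 0.68 for Hamp, -0.033 to 0.085 for Fth1 and -0.039 to 0.38 for Slc39a14 (against E332K), -0.020 to 0.99 for Hamp (AAV9.EGFP), -0.026 to 0.15 for Tfrc (rAAV9-ST3GAL5.v2), and -0.23 to 0.12 for Tfrc and -0.045 to 0.091 for Ftl1 (PBS).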
